A study of Mus musculus with 8 samples.

Results

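The Ifit family is the group of genes for interferon-induced proteins with tetratricopeptide repeats, which lie side by side on mouse chromosome 19. Its 5 members here are Ifit1, Ifit1bl1, Ifit2, Ifit3 and Ifit3b. They were found by matching the Entrez gene IDs of the deposited count table to these symbols. The table holds 27179 genes, and all 5 members passed the filter on low counts that left 14238 genes for testing.

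The study measured RNA in dendritic cells (DC) from the spleens of C57BL/6 mice that carried a leukemia. Its title names the type I interferon receptor, IFNAR, and activation of plasmacytoid DC. Mice received panobinostat, an inhibitor of histone deacetylases, or vehicle (dextrose in water, as the D5W in the column names was read) for 2 days. The groups were plasmacytoid DC (pDC) after panobinostat, pDC after vehicle, conventional DC (cDC) after panobinostat and cDC after vehicle. Every group came from leukemia-bearing mice, so no group shows these cells without leukemia. Each group had 2 libraries, and each library came from a pool of 3 to 6 mice, so animals within a pool cannot be separated. The mice's age is not stated in the sources used here. The labels call the libraries biological replicates, and the p-values measure only the spread between these pools. The protocol in the labels describes a sort of leukemia cells, whereas titles and cell type name pDC and cDC. The summed level of 10 pDC marker genes was 15536 and 21059 depth-scaled counts (CPM) in panobinostat pDC and 12792 and 14715 CPM in vehicle pDC. It was 183 and 214 CPM in panobinostat cDC and 217 and 276 CPM in vehicle cDC, so these markers followed the cell type names. The summed level of 10 cDC marker genes did not separate the cell types, at 2672 and 4405 CPM in panobinostat pDC and 2601 and 3262 CPM in vehicle pDC, against 2910 to 3670 CPM in the cDC libraries. Of these genes Zbtb46, the factor of the cDC lineage, had 2.37 to 19.6 CPM in pDC and 137 to 199.9 CPM in cDC, and Xcr1 0 to 4.60 CPM in pDC and 257 to 601 CPM in cDC, whereas Cd209a had 754 to 1883 CPM in pDC and 81.3 to 142 CPM in cDC.

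IFIT proteins are made in low amounts in most resting cells and accumulate when type I interferon, acting through IFNAR, brings a complex of transcription factors that includes IRF9 to interferon-stimulated response elements in their promoters. They bind RNA and hold back translation: Ifit1 recognises mRNA whose cap lacks the ribose methyl group that marks a host transcript, and Ifit2 limits the replication of several viruses in mice. In human cells IFIT3 binds IFIT1 and stabilises it, and IFIT2 and IFIT3 also bind each other. pDC are known as the blood and spleen cells with the highest type I interferon output, and cDC as the cells that present antigen to T cells.

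Total counts were 13124861 to 20657429 per library. The second panobinostat pDC library stood apart, with the lowest total and 10745 genes with a count, against 14927 to 19950 genes in the other libraries. Across genes, log2 CPM of the paired replicates correlated at 0.801 in panobinostat pDC, against 0.965 in vehicle pDC, 0.973 in panobinostat cDC and 0.970 in vehicle cDC. Treatment log2 fold changes of the members in pDC are therefore given with and without it.

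The members span 99316 bases, chr19:34550694-34650009 in GENCODE M21 on GRCm38, the assembly called mm10. From left to right they are Ifit2 and Ifit3 on the plus strand, Ifit1bl1 on the minus strand, Ifit3b on the plus strand and, after the related non-member Ifit1bl2 on the minus strand, Ifit1 on the plus strand. Ifit1bl2 and Ifit1 stand head to head with 127 bases between them. The upstream sequences are shown because the members differ in a short motif there, and because the shared stretches show which members are near copies. The motif GAAANNGAAA, the core spacing of an interferon-stimulated response element, was searched on both strands in the 250 bases before each transcription start in the RefSeq promoter table (GRCm38.p6). It occurs in 978 of 32851 such windows (2.98%), and 936 of 27025 genes (3.46%) have it in at least 1 window. The stretches below run 5′ to 3′ along each gene's own strand, with the motif in capitals as its reverse complement, TTTCNNTTTC.

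Ifit1, chr19:34640745-34640853, plus strand: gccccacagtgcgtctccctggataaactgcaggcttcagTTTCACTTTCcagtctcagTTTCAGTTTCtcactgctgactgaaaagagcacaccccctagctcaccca
Ifit3, chr19:34583333-34583456, plus strand: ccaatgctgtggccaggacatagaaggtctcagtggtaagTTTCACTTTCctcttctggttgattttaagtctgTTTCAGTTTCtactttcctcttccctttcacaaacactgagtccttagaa
Ifit3b, chr19:34607729-34607852, plus strand: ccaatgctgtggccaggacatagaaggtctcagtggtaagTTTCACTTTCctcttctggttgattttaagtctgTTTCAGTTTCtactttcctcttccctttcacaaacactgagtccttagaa
Ifit1bl1, chr19:34602023-34602112, minus strand: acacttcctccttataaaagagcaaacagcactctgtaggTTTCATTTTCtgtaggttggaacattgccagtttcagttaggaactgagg

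Ifit1 has the motif at 2 places, which begin 104 and 85 bases before its start. The same 2 sites lie upstream of Ifit1bl2 on the other strand, since the gap between these genes is shorter than the window. Ifit3 has the motif 156 and 122 bases before its start and Ifit3b 188 and 154 bases before its own, within stretches of identical letters. Ifit1bl1 has 1 site upstream of each of its RefSeq starts, 104 bases before the first, shown above, and 23 bases before the second, which lies inside the gene. Ifit2 has these letters in neither of its RefSeq windows, which describes this window only. In the list of antiviral effector genes used below, 9 of the 24 genes in the promoter table have the motif, Isg15 and Rsad2 among them. A match describes the letters and does not show that a protein binds there.

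**Figure D1:**
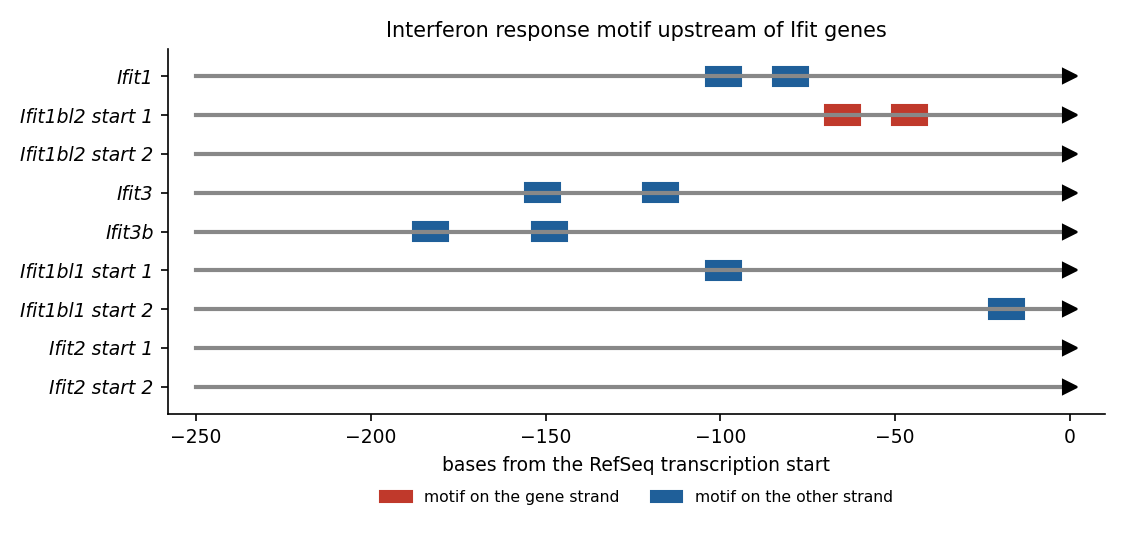
Position of the motif GAAANNGAAA (either strand) in the 250 bases before the annotated starts of the Ifit genes; the x axis is the distance from the RefSeq start in bases, and colours give the motif's strand. Ifit1, Ifit3, Ifit3b and the first start of Ifit1bl2 have 2 sites each, both starts of Ifit1bl1 have 1, and both starts of Ifit2 have 0.

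How far the members can be told apart by reads differs within the family. The coding sequences of Ifit3 and Ifit3b, 1209 bases each, are identical at 1198 positions (99.1%). Of the 100-base stretches of the Ifit3 transcript, 31.7% also occur in Ifit3b, and 27.4% of those of Ifit3b occur in Ifit3. Ifit1 shares 3.29% of its 100-base stretches with Ifit1bl2, Ifit1bl1 shares 0.524% with any other family transcript, and Ifit2 shares none. Ifit1 and Ifit1bl1 are identical at 73.4% of aligned coding positions, and the other pairs between Ifit1, Ifit2 and Ifit3 at 50.9% to 55.7%. The handling of reads with several alignments and the strandedness of the counting are unknown, since the sources used here do not give them. Ifit3 and Ifit3b are therefore uncertain as separate genes. Among the Ifit genes named here, GENCODE shows none that overlaps Ifit1bl1, and its other genes were not checked. In RefSeq the span of Ifit1bl1, chr19:34592888-34662981, covers Ifit3b, Ifit1bl2 and Ifit1. The annotation used for counting is unknown, so the counts of Ifit1bl1 are uncertain too.

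In pDC, both panobinostat libraries had more RNA of each of the 5 members than both vehicle libraries, as did 15.7% of all genes tested. The log2 fold changes ran from 0.29 for Ifit2 to 2.48 for Ifit1. None passed the test, with 0 of 5 members called at an adjusted p under 0.05, against 0.0913% of all genes. Ifit1, the binder of foreign-type caps, had 35.1 and 105 CPM in panobinostat pDC, against 8.98 and 16.1 CPM in vehicle pDC. The groups did not overlap, and the second panobinostat library was the highest of all 8 in the study. The group means were 70.3 ± 49.7 CPM in panobinostat pDC and 12.5 ± 5.04 CPM in vehicle pDC (SD, n = 2 each). This gave a log2 fold change of 2.48 ± 0.61 (standard error, SE) and an adjusted p = 0.189 by edgeR's quasi-likelihood test (Benjamini-Hochberg adjustment over all 14238 genes). Without the second panobinostat library the log2 fold change was 1.43 ± 0.40 (adjusted p = 0.102), and without the first it was 3.06 (adjusted p = 0.00137). As these are bulk samples, a change in the make-up of the sorted cells and a change in RNA per cell cannot be told apart.

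Ifit3 and Ifit3b, the near copies, gave the same picture at lower fold changes. Ifit3 had 31.2 and 77.9 CPM in panobinostat pDC, against 11.9 and 22.7 CPM in vehicle pDC. Ifit3b had 18.0 and 53.3 CPM in panobinostat pDC, against 7.06 and 11.7 CPM in vehicle pDC. For both genes the groups did not overlap, and the second panobinostat library was again more than 2 times the first. The log2 fold change was 1.66 ± 0.55 for Ifit3 (adjusted p = 0.264) and 1.92 ± 0.60 for Ifit3b (adjusted p = 0.247). Without the second panobinostat library Ifit3 and Ifit3b had 0.80 ± 0.44 and 0.88 ± 0.39, with adjusted p = 0.333 and 0.240. Without the first they were 2.17 and 2.50, with adjusted p = 0.00726 and 0.00266. Calls for Ifit1, Ifit3 and Ifit3b thus depended on which of the panobinostat libraries was kept. The calls without the first do not set these members apart from other genes. With the first left out, 8227 of all tested genes were called as well.

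Ifit2 varied little between the pDC libraries. It had 119 and 112 CPM in panobinostat pDC, against 81.0 and 109 CPM in vehicle pDC. The panobinostat libraries lay above the vehicle libraries by a narrow margin, and here the second panobinostat library was not the higher one. Its log2 fold change was 0.29 ± 0.25 (adjusted p = 0.603), and 0.27 ± 0.27 without the second panobinostat library. Ifit1bl1, a close relative of Ifit1, was near the detection limit in pDC, with 35 and 24 counts in panobinostat pDC and 13 and 11 counts in vehicle pDC. These are 1.74 and 2.23 CPM in panobinostat pDC and 0.656 and 0.595 CPM in vehicle pDC, without overlap. The exact 95% Poisson intervals of the raw counts were 24.4 to 48.7 and 15.4 to 35.7 in panobinostat pDC. In vehicle pDC they were 6.92 to 22.2 and 5.49 to 19.7. They cover counting error only and are not scaled for depth. The second panobinostat library had 13124861 counts in total, against 18142443 and 18756193 in vehicle pDC, so these intervals do not compare levels between libraries. Ifit1bl1 had a log2 fold change of 1.65 ± 0.53 (adjusted p = 0.251), and 1.41 ± 0.63 without the second panobinostat library (adjusted p = 0.244).

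The log2 fold change was above 0 for 5 of 5 members in pDC, against 44% of all genes. At an unadjusted p under 0.05 there were 4 members, all but Ifit2 and all higher, against 14.9% of all genes (5.65% higher). DESeq2 called 2 members, Ifit1 and Ifit3b, among 914 genes, and limma-voom 0 members and 0 genes. The median log2 fold change was 1.66 over the members and -0.14 over all genes. Ranked by log2 fold change from the highest, Ifit1 stood at place 275 of 14238, Ifit3b at 485, Ifit3 at 656, Ifit1bl1 at 668 and Ifit2 at 4674. Markers of other cell types were read beside these values. The sum of 10 natural killer cell genes was 189 and 555 CPM in panobinostat pDC, against 28.1 and 52.1 CPM in vehicle pDC, of which Klrk1 gave 178 and 487 CPM with panobinostat and 22.95 and 42.8 CPM with vehicle, while Eomes and Gzmb were at 0 in both panobinostat libraries. The sum of 10 monocyte and macrophage genes was 3580 and 6930 CPM in panobinostat pDC, against 2109 and 3840 CPM in vehicle pDC. Ly6c2, with 2708 and 5958 CPM in panobinostat pDC and 1674 and 3445 CPM in vehicle pDC, and Ccr2 made up nearly all of it, and the other 8 genes were at 0 in the second panobinostat library. The sum of 10 T cell genes was 491 and 722 CPM in panobinostat pDC, against 1076 and 1670 CPM in vehicle pDC, mostly Cd4 and Cd8b1. None of these marker genes was called between panobinostat and vehicle, and their part in the Ifit values was not tested.

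**Figure D2:**
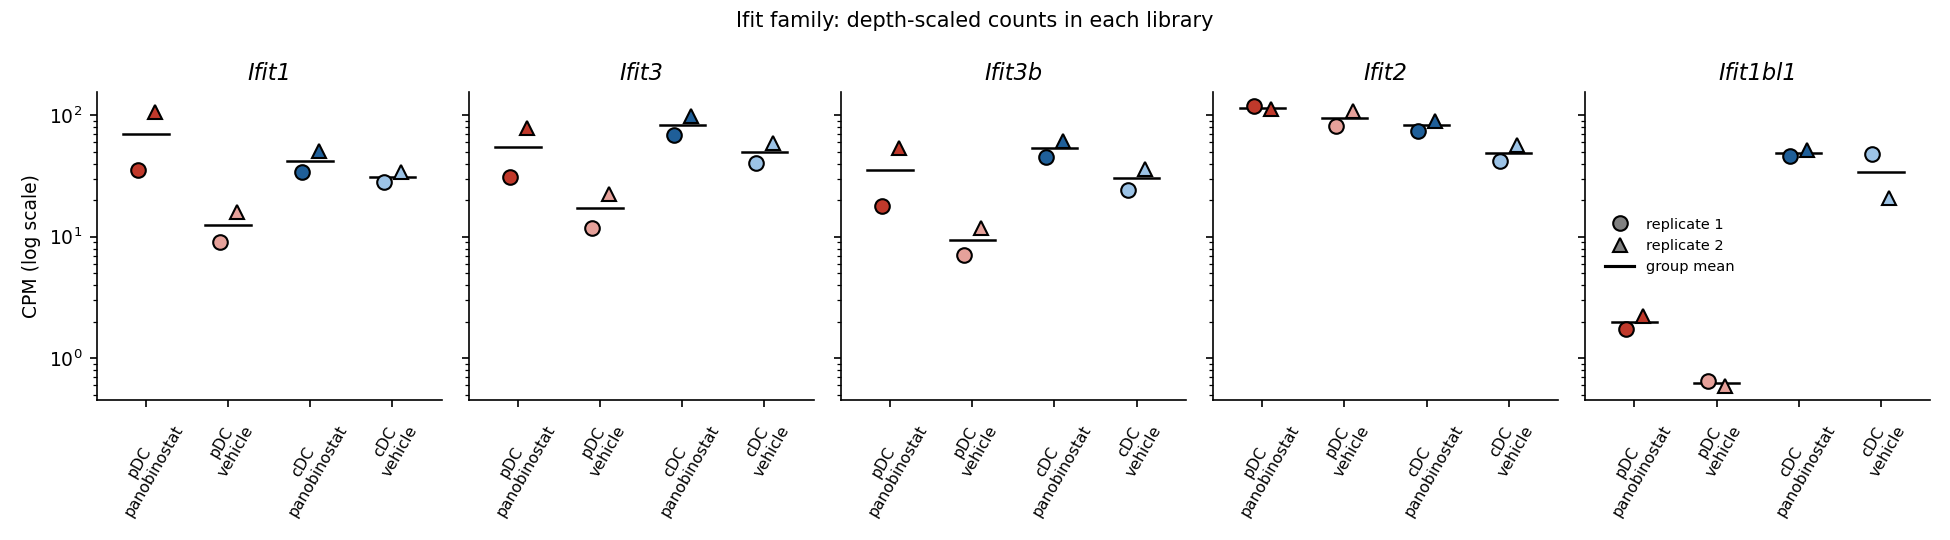
CPM of each Ifit gene (y axis, log scale) in every library of the 4 groups; points are libraries and bars are group means. In pDC the panobinostat libraries of Ifit1 (35.1 and 105 CPM) lie above the vehicle libraries (8.98 and 16.1 CPM), and Ifit1bl1 sits far lower in pDC than in cDC.

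In cDC the members were also higher on average after panobinostat, by a smaller ratio than in pDC for all but Ifit2, and again 0 of 5 were called (adjusted p = 1 for each), against 0% of all genes. At an unadjusted p under 0.05 there was 1 member, Ifit2, against 206 of all genes (1.45%, and 0.78% higher). DESeq2 called 15 genes and 0 members, and limma-voom 0 of each. Ifit2 had 74.6 and 90.4 CPM in panobinostat cDC, against 41.9 and 56.6 CPM in vehicle cDC. The groups did not overlap, and the log2 fold change was 0.74 ± 0.25. Ifit3 had 69.0 and 98.5 CPM in panobinostat cDC and 40.2 and 58.6 CPM in vehicle cDC, and Ifit3b had 45.5 and 61.8 CPM and 24.5 and 35.9 CPM in the same groups. Neither of these overlapped, with log2 fold changes of 0.76 ± 0.54 for Ifit3 and 0.83 ± 0.59 for Ifit3b. Ifit1 had 33.8 and 50.7 CPM in panobinostat cDC and 28.2 and 34.1 CPM in vehicle cDC, and these groups overlapped. Its log2 fold change was 0.44 ± 0.58. Ifit1bl1 had 45.9 and 51.4 CPM in panobinostat cDC and 47.8 and 20.7 CPM in vehicle cDC, and the first vehicle library lay between the panobinostat libraries. Its log2 fold change was 0.51 ± 0.49. Both panobinostat libraries exceeded both vehicle libraries for 3 of 5 members, against 22.2% of all genes. The log2 fold change was above 0 for 5 of 5 members, against 50.4% of all genes, with a median of 0.74 over the members and 0.00 over all genes. The sum of the natural killer cell genes was 808 and 1041 CPM in panobinostat cDC and 1145 and 770 CPM in vehicle cDC, which overlap and consist mostly of Ccl5 and Klrk1. Ncr1, a receptor of natural killer cells, had 1.45 and 43.1 CPM in panobinostat cDC and 0.280 and 6.42 CPM in vehicle cDC. Gzma, a granzyme, had 1.54 and 50.5 CPM in panobinostat cDC and 0.0932 and 6.46 CPM in vehicle cDC, and 9 of the 10 genes, all but Ccl5, were highest among cDC in the second panobinostat library. That library also had the highest cDC level of all 5 members. Whether cells that carry these natural killer genes add to the Ifit values was not tested. Without this library the log2 fold changes were 0.13 for Ifit1, 0.43 for Ifit1bl1, 0.60 for Ifit2, 0.49 for Ifit3 and 0.60 for Ifit3b.

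The difference between these effects, pDC minus cDC, was tested as an interaction. It called 0 of 5 members, against 1 of all genes (0.00702%). DESeq2 called 0 members among 290 genes, and limma-voom 0 members and 0 genes. Ifit1 had a difference of 2.04 ± 0.83 on the log2 scale (adjusted p = 0.632). It was the 1 member at an unadjusted p under 0.05, against 7.77% of all genes (1.78% with a positive difference). The difference was above 0 for 4 of 5 members, against 44.9% of all genes. It was 1.09 ± 0.83 for Ifit3b, 0.90 ± 0.76 for Ifit3 and 1.14 ± 0.71 for Ifit1bl1, with adjusted p = 0.827, 0.839 and 0.791. For Ifit2 the difference was -0.46 ± 0.35 (adjusted p = 0.828), the 1 member whose log2 fold change was lower in pDC than in cDC. Without the first panobinostat pDC library Ifit1 and Ifit3b were called, with differences of 2.62 ± 0.51 and 1.66 ± 0.49 (adjusted p = 0.00889 and 0.0384), among 6457 of 14868 genes called in that fit. Without the second the difference was 1.002 ± 0.521 for Ifit1, 0.05 ± 0.57 for Ifit3 and 0.07 ± 0.51 for Ifit3b, and 0 members were called. With both libraries, no member was shown to respond differently in pDC and cDC.

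**Figure D3:**
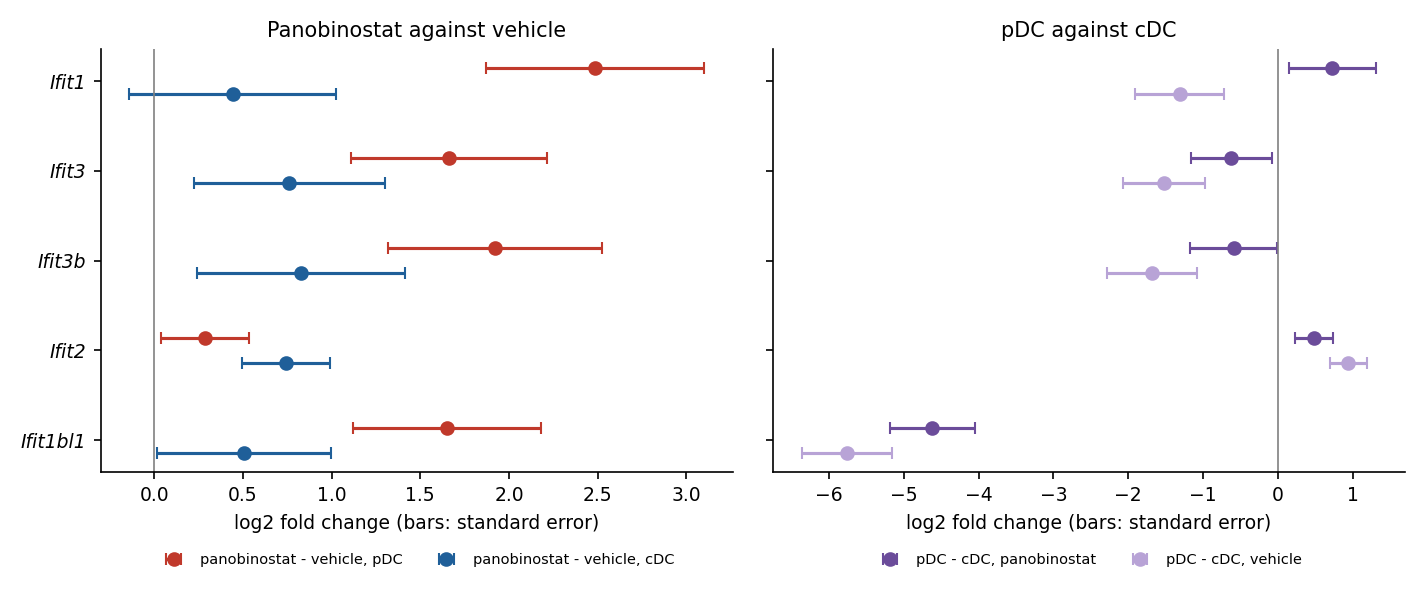
Log2 fold change (x axis) of each Ifit gene for panobinostat against vehicle (left panel, by cell type) and for pDC against cDC (right panel, by treatment); bars show ± 1 SE of a fit to 2 libraries per group. On the left the values run from 0.29 for Ifit2 to 2.48 for Ifit1 in pDC and from 0.44 to 0.83 in cDC, with none called; on the right Ifit1bl1 lies far to the left, at -4.62 after panobinostat and -5.76 with vehicle.

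Between the cell types, Ifit1bl1 was the member that passed the test: its RNA was far lower in pDC than in cDC, with or without the drug. It was the 1 of 5 members called in vehicle cells, against 9.73% of all genes (4.71% lower in pDC), and the 1 of 5 called after panobinostat, against 18% (10.2% lower). Vehicle pDC had 0.656 and 0.595 CPM of Ifit1bl1, against 47.8 and 20.7 CPM in vehicle cDC. This is a log2 fold change of -5.76 ± 0.61 (adjusted p = 0.00392 by edgeR's quasi-likelihood test). Panobinostat pDC had 1.74 and 2.23 CPM, against 45.9 and 51.4 CPM in panobinostat cDC, with a log2 fold change of -4.62 ± 0.57 (adjusted p = 0.00562). Every pDC library lay below every cDC library by more than 9 times. The call was missed by a little in the vehicle comparison without either vehicle pDC library, with adjusted p = 0.0530 and 0.0521. In the panobinostat comparison it was missed without either panobinostat cDC library, with adjusted p = 0.0504 and 0.0537. The log2 fold changes in these and the other fits with 1 library left out stayed between -6.24 and -5.02 in vehicle and between -4.86 and -4.45 in panobinostat.

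Ifit2 ran the other way between the cell types. Vehicle pDC had 81.0 and 109 CPM of Ifit2, against 41.9 and 56.6 CPM in vehicle cDC, so that pDC lay above cDC without overlap, by a log2 fold change of 0.94 ± 0.25 (adjusted p = 0.0685). Panobinostat pDC had 119 and 112 CPM, against 74.6 and 90.4 CPM in panobinostat cDC, again without overlap, with a log2 fold change of 0.49 ± 0.25 (adjusted p = 0.219). Ifit1, Ifit3 and Ifit3b lay below cDC in both vehicle pDC libraries, without overlap. Their log2 fold changes were -1.31 ± 0.59 for Ifit1, -1.52 ± 0.55 for Ifit3 and -1.68 ± 0.60 for Ifit3b, with adjusted p = 0.244, 0.152 and 0.146. With the replicate number as a block, Ifit3 was called at -1.57 ± 0.30 (adjusted p = 0.0396), so that the members called in vehicle cells were then 2, among 1241 of 14238 genes. After panobinostat the pDC and cDC libraries of these 3 genes overlapped, with log2 fold changes of 0.73 ± 0.58 for Ifit1, -0.62 ± 0.54 for Ifit3 and -0.59 ± 0.58 for Ifit3b. The positive value of Ifit1 rested on the second panobinostat pDC library, since without it the value was -0.32 ± 0.41. Without that library Ifit3b stood at -1.63 ± 0.42. With each library left out in turn, the values ran from -0.32 to 1.31 for Ifit1 and from -1.63 to -0.01 for Ifit3b.

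In vehicle, 4 members lay below cDC without overlap, against 35.5% of all genes, and 1 above, against 35.1%. After panobinostat 1 member lay below without overlap, against 38%, and 1 above, against 24.7%. The median log2 fold change was -1.52 over the members and 0.02 over all genes in vehicle, and -0.59 and -0.18 after panobinostat.

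To compare members with each other, CPM was divided by the length of the main GENCODE transcript in kilobases. On this scale Ifit2 led in vehicle pDC, at 24.8 ± 5.10 CPM per kb (SD, n = 2), followed by Ifit3 at 9.89 ± 4.38, Ifit1 at 4.72 ± 1.90, Ifit3b at 4.70 ± 1.65 and Ifit1bl1 at 0.284 ± 0.0196 CPM per kb. Ifit2 and Ifit1bl1 stood outside the spread of their neighbours, whereas Ifit1 and Ifit3b differed by less than their spread. In panobinostat pDC, Ifit3 had 31.3 ± 18.9, Ifit2 30.3 ± 1.34, Ifit1 26.5 ± 18.7 and Ifit3b 17.8 ± 12.5 CPM per kb, and these spreads all overlapped. Ifit1bl1 had 0.901 ± 0.159 CPM per kb. In panobinostat cDC, Ifit3 led at 48.0 ± 11.9, ahead of Ifit3b at 26.8 ± 5.75, Ifit1bl1 at 22.1 ± 1.77, Ifit2 at 21.6 ± 2.93 and Ifit1 at 15.9 ± 4.50 CPM per kb. In vehicle cDC, Ifit3 led at 28.3 ± 7.45 CPM per kb. Ifit1bl1, Ifit3b, Ifit2 and Ifit1 lay between 15.6 ± 8.72 and 11.7 ± 1.57 CPM per kb, with spreads that overlapped. The Ifit3 and Ifit3b levels carry the uncertainty of their shared sequence.

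The make-up of the family's RNA followed the same lines. The summed level of the members was 205 and 351 CPM in panobinostat pDC and 110 and 160 CPM in vehicle pDC, and 269 and 353 CPM in panobinostat cDC and 183 and 206 CPM in vehicle cDC. Ifit2 made up 58.1% and 31.9% of the family's counts in panobinostat pDC and 73.9% and 68.0% in vehicle pDC. In cDC its share was 27.7% and 25.6% with panobinostat and 23.0% and 27.5% with vehicle. The vehicle pDC libraries thus had the highest Ifit2 shares, and the second panobinostat pDC library came nearest to cDC. Ifit1bl1 took 0.846% and 0.635% in panobinostat pDC and 0.599% and 0.373% in vehicle pDC, against 17.1% and 14.6% in panobinostat cDC and 26.2% and 10.05% in vehicle cDC.

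Ratios within a library do not depend on the scaling between libraries. The count of Ifit1 divided by that of Ifit2 was 0.295 and 0.942 in panobinostat pDC and 0.111 and 0.148 in vehicle pDC, without overlap. In cDC it was 0.454 and 0.561 with panobinostat and 0.672 and 0.602 with vehicle, so that there the panobinostat libraries lay below. The ratio of Ifit1 to Ifit3 was 1.13 and 1.35 in panobinostat pDC and 0.757 and 0.711 in vehicle pDC. In cDC it was 0.490 and 0.515 with panobinostat and 0.701 and 0.582 with vehicle. The ratio of Ifit3 to Ifit3b varied least, from 1.46 to 1.93 over all 8 libraries. The part of shared sequence in this ratio was not tested. Across the 8 libraries the log2 CPM of Ifit3 and Ifit3b correlated at 0.997 and that of Ifit1 with them at 0.876 and 0.882. Ifit2 correlated at 0.177 with Ifit1 and at -0.646 with Ifit1bl1. These correlations describe 8 libraries that share groups, cell types and depth.

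**Figure D4:**
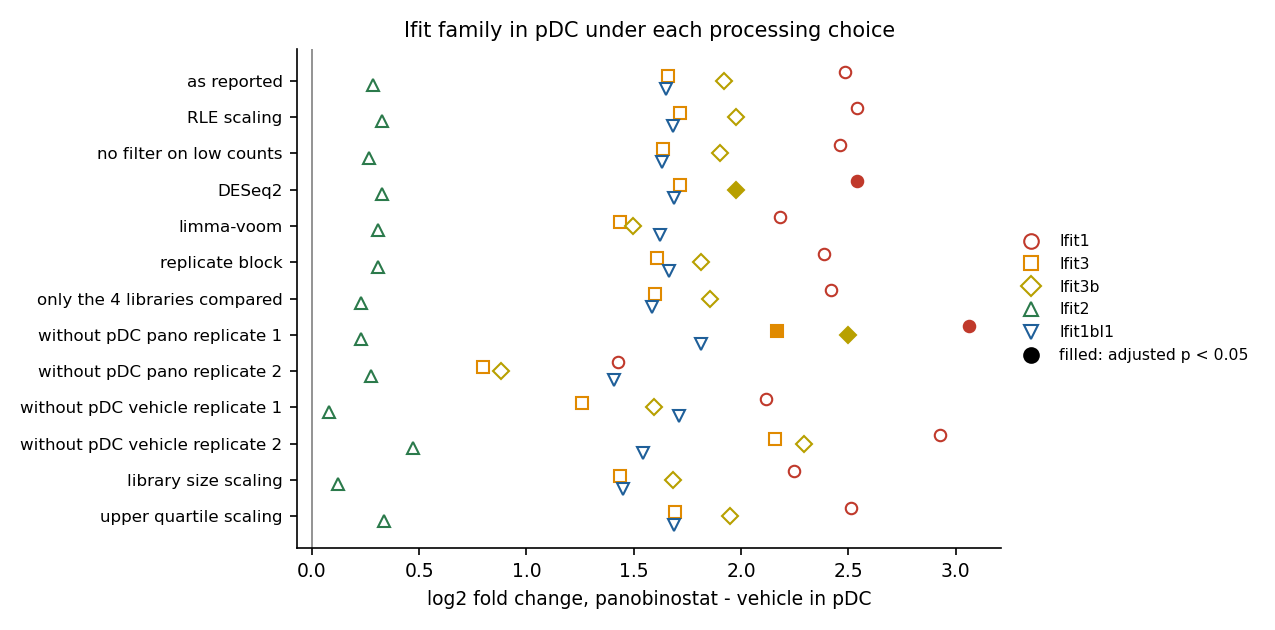
Log2 fold change (x axis) of each Ifit gene for panobinostat against vehicle in pDC, as reported and under each of 12 alternatives (rows); filled symbols have an adjusted p under 0.05. Ifit1 reaches from 1.43 without the second panobinostat library to 3.06 without the first, symbols are filled only with DESeq2 and without the first library, and no member's value lies below 0.

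By a fixed rule, the genes whose pattern over the 8 libraries was most like the mean of the members were Ncf4 (Pearson r = 0.986), Susd3 (0.981), AW112010 (0.981), Nutf2 (0.980), Pnp (0.979) and Glrx (0.976), out of 8282 candidates. Ncf4 encodes a subunit of the phagocyte NADPH oxidase. It had 117 and 198 CPM in panobinostat pDC and 64.9 and 79.8 CPM in vehicle pDC, and 230 and 229 CPM in panobinostat cDC and 170 and 206 CPM in vehicle cDC. The mean stands for the members unevenly. Each member was centred on its own mean but not scaled, so Ifit1bl1, with the widest range over the libraries, weighs most. Ifit2 correlated at -0.646 with Ifit1bl1. Taken singly, the most like gene was Klrk1 for Ifit1 (0.984), Irf9 for Ifit2 (0.965) and Trim59 for Ifit1bl1 (0.990). For Ifit3 it was Ifit3b (0.997), and for Ifit3b it was Cycs (0.997). The largest of 8282 or more correlations over so few libraries is high by selection, and these values describe likeness only.

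The pathway that acts on the family was read from lists of ligands, receptors and signalling genes, sensors and other effectors. Of 21 interferon ligand genes 2 had enough counts to be tested, Ifng and Ifnk, and neither was called or had an unadjusted p under 0.05 in either cell type. Ifnb1, the gene for interferon beta, had 20 and 0 counts in panobinostat pDC and 2 and 2 in vehicle pDC, and 0 in all cDC libraries. The Ifna genes on the list had at most 1 count in any library, so their RNA was at or near 0 at this depth. Of 16 receptor and signalling genes 0 were called in either cell type by edgeR's test, with a log2 fold change above 0 for 5 in pDC (median -0.10) and 12 in cDC (median 0.35). At an unadjusted p under 0.05 there were 4 in pDC and 3 in cDC. Stat2, a subunit of the factor that acts on Ifit promoters, had 236 and 107 CPM in panobinostat pDC and 376 and 234 CPM in vehicle pDC, and Irf9, another subunit, 306 and 236 CPM and 180 and 233 CPM in these groups. Usp18, which damps signalling at IFNAR, had 260 and 457 CPM in panobinostat pDC and 146 and 191 CPM in vehicle pDC, at 1.09 ± 0.33 (adjusted p = 0.239). Without the first panobinostat library this was 1.43, and without the second 0.57. Tyk2, a kinase bound to IFNAR, had 38.8 and 73.6 CPM in panobinostat pDC and 202 and 148 CPM in vehicle pDC (adjusted p = 0.148).

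Genes of the receptor itself were higher in pDC than in cDC. In vehicle cells Ifnar1 had 479 and 463 CPM in pDC, against 115 and 107 CPM in cDC, with a log2 fold change of 2.09 ± 0.18 (adjusted p = 0.00224). Ifnar2 had 437 and 585 CPM in vehicle pDC, against 98.7 and 95.7 CPM in vehicle cDC, at 2.39 ± 0.27 (adjusted p = 0.00452; 0.0571 and 0.0588 without the first and the second vehicle cDC library). Irf7, the factor for interferon alpha genes, had 831 and 1376 CPM in vehicle pDC, against 148 and 182 CPM in vehicle cDC, at 2.74 ± 0.35 (adjusted p = 0.00744; 0.0835 and 0.0648 without those libraries). After panobinostat Irf7 had 650 and 1039 CPM in pDC and 318 and 299 CPM in cDC. Between panobinostat and vehicle it was not called in either cell type.

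Of 10 RNA sensor genes 0 were called in either cell type by edgeR's test. The log2 fold change was above 0 for 8 in pDC and 7 in cDC, against 44% and 50.4% of all genes. At an unadjusted p under 0.05 there were 4 and 1, against 14.9% and 1.45% of all genes. Ifih1, the sensor MDA5 for long double-stranded RNA, had 94.5 and 101 CPM in panobinostat pDC and 52.7 and 60.3 CPM in vehicle pDC, at 0.79 ± 0.20 (adjusted p = 0.199). Zbp1, a sensor of Z-form nucleic acid, had 57.8 and 92.8 CPM in panobinostat pDC and 18.4 and 30.9 CPM in vehicle pDC, at 1.61 ± 0.42 (adjusted p = 0.200). In cDC Zbp1 had 66.6 and 93.1 CPM with panobinostat and 28.3 and 41.6 CPM with vehicle. Dhx58, which encodes the regulator LGP2, had 45.9 and 112 CPM in panobinostat pDC and 34.6 and 41.6 CPM in vehicle pDC. For these 3 sensors, which were named for their small p, the panobinostat pDC libraries lay above without overlap, as for 15.7% of all genes. Of the other sensors, Ddx58 and Ikbke also lay above and Mavs lay below without overlap. Tlr3, Tlr7, Trim25 and Tbk1 overlapped. DESeq2 called Ifih1 and Zbp1 in pDC (adjusted p = 0.0102 and 0.0104). Their log2 fold changes were 0.83 and 1.90 without the first panobinostat library, and 0.69 and 1.17 without the second.

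The other antiviral effectors, which respond to interferon as the Ifit genes do, gave 1 called gene of 31 tested in pDC. Ifi27 rose to 169 and 199 CPM in panobinostat pDC, against 43.2 and 45.0 CPM in vehicle pDC, with a log2 fold change of 2.06 ± 0.18 (adjusted p = 0.0458). This call lay close to the threshold and was lost with the replicate block (adjusted p = 0.0718), with DESeq2's size factors in place of TMM (adjusted p = 0.0503) and with limma-voom (adjusted p = 0.0592). It was also lost without either vehicle pDC library, with adjusted p = 0.360 and 0.349, and in a fit of the 4 pDC libraries alone (adjusted p = 0.973). In cDC Ifi27 had 108 and 114 CPM with panobinostat and 61.6 and 58.3 CPM with vehicle, at 0.88 ± 0.17 (adjusted p = 1). A log2 fold change above 0 was found for 22 of 31 effectors in pDC, against 44% of all genes, with a median of 0.41. In cDC it was found for 29 of 31, against 50.4% of all genes, with a median of 0.49 and 0 called. At an unadjusted p under 0.05 there were 10 in pDC, against 14.9% of all genes, and 4 in cDC, against 1.45%. DESeq2 called 1 effector in cDC, among 15 genes. DESeq2 called 6 in pDC, among 914 of 14238 genes. With each pDC library left out in turn, 20 to 23 effectors lay above 0 in pDC. The number called there depended on which library was left out, as it did over all genes. The members' median was 1.66 in pDC and 0.74 in cDC. Isg15, a ubiquitin-like modifier, had 43.1 and 50.3 CPM in panobinostat pDC and 28.04 and 53.6 CPM in vehicle pDC, and Oasl1, which restrains Irf7 translation in mice, 22.2 and 40.1 CPM and 23.3 and 39.6 CPM, so that both overlapped. Mx1 had 51.8 and 58.7 CPM in panobinostat pDC and 51.8 and 31.1 CPM in vehicle pDC. Rsad2, the gene for viperin, had 30.2 and 28.3 CPM in panobinostat pDC and 12.96 and 18.4 CPM in vehicle pDC, without overlap. Ifitm2, an entry inhibitor, had 31.7 and 66.8 CPM in panobinostat pDC and 10.9 and 8.16 CPM in vehicle pDC, with adjusted p = 0.143. Ifi44 overlapped in pDC, but in cDC had 8.53 and 12.2 CPM with panobinostat and 3.26 and 4.06 CPM with vehicle.

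**Figure D5:**
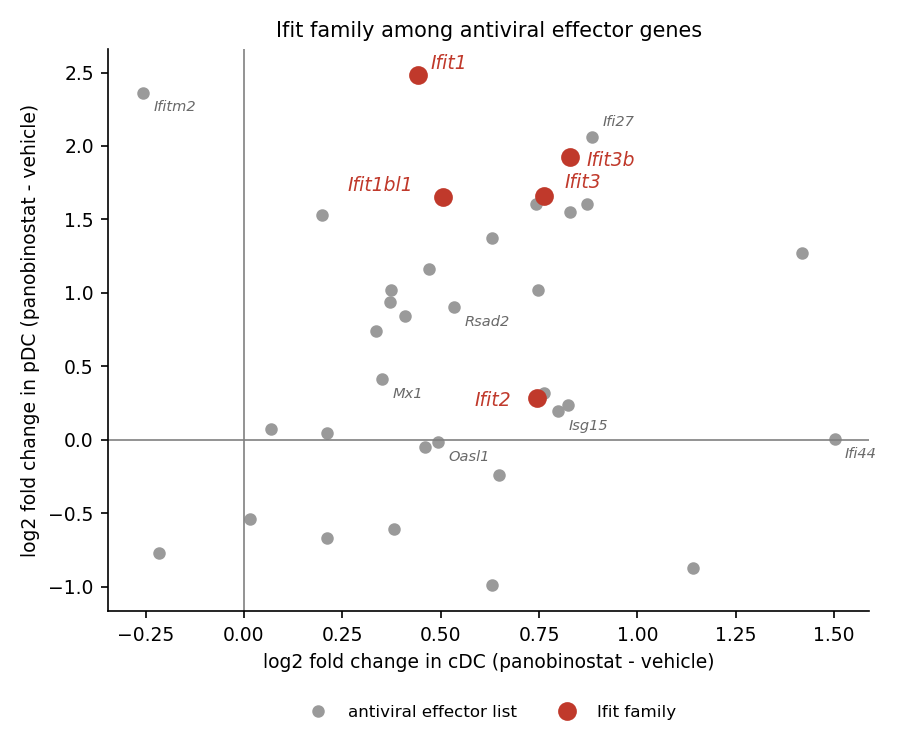
Log2 fold change for panobinostat against vehicle in pDC (y axis) and cDC (x axis) of the 5 Ifit genes (red) and of the 31 other antiviral effector genes tested (grey); each point is 1 gene. Ifit1 stands at the top, at 2.48 in pDC and 0.44 in cDC, and Ifi27 lies at 2.06 in pDC and 0.88 in cDC. Ifit2 lies at 0.29 in pDC and 0.74 in cDC, where the medians of the effectors are 0.41 and 0.49.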

How the data were processed

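The deposited file gives raw read counts as whole numbers for each Entrez gene ID and library. Per the submitters' processing notes, the authors' tools were bcl2fastq (2.17.1.14), FastQC (0.11.6), cutadapt (2.1), HISAT2 (2.1.0), featureCounts (Subread 2.0.0) and limma, with mm10. Per the labels' protocols, libraries came from a low-input mRNA kit. Columns naming D5W were taken as vehicle and LBH as panobinostat, and 0 columns were left over. Of the IDs, 25275 matched a symbol and 1904 did not.

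Genes were filtered with filterByExpr (minimum count 10, minimum total 15) and scaled by TMM in edgeR (4.0.16, R 4.3.3). All 8 libraries entered 1 quasi-likelihood fit with 1 coefficient per group (4 residual and 2.32 prior degrees of freedom). Benjamini-Hochberg adjustment ran over 14238 genes, with 0.05 as the threshold. SE came from the F statistic, and a prior count of 2 entered log2 CPM. The fit was tested on simulated data.

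The members and all gene lists were chosen with earlier results of these data known. Named genes were the members, a fixed set, the called genes of the effector and signalling lists and, per list and treatment comparison, the 2 smallest p. Likeness was ranked among genes whose log2 CPM averaged at least 3.

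Same-numbered libraries deviated together in all 6 pairs of groups (correlations 0.146 to 0.489), so the replicate numbers of the labels may pair the samples. With 2 libraries per group these 6 values are not independent, so they cannot settle whether the samples are paired. The reported fit carries no block, so its SE and p-values do not use any such pairing. Alternatives were DESeq2 (1.42.0), its size factors (RLE), limma-voom (3.58.1), no filter, the block, the 4 compared libraries only and each library left out. Scaling by library size or upper quartile was added after the data were seen. Reads carry no molecular identifiers. Genes count as shared sequence by exact matches between GENCODE M21 transcripts. Results for some genes of the lists are not reported here.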

Additional observations from a re-analysis of the deposited data

How the results depend on the processing

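Of 315 refits of single members, 292 kept direction and side of the threshold, 17 passed it only in the alternative, 5 lost it and 1 reversed. The treatment log2 fold change of every member was above 0 in all 12 alternatives in each cell type. The reversal was Ifit1 in pDC against cDC after panobinostat, at -0.32 without the second panobinostat pDC library (-0.32 to 1.31 with each library left out). DESeq2 called 2 members for panobinostat in pDC (Ifit1 and Ifit3b, adjusted p = 0.00352 and 0.0365) and 4 in vehicle pDC against cDC. A fit of only the 4 libraries compared called 5 in vehicle and 0 after panobinostat, where Ifit1bl1 stood at -4.65 (adjusted p = 0.0599). With the replicate block, which pairs same-numbered libraries, 2 members were called in vehicle pDC against cDC, and no other member's call changed. With each library left out, members called ranged from 0 to 3 for panobinostat in pDC, 0 to 0 in cDC, 0 to 2 for the difference, 0 to 1 in vehicle pDC against cDC and 0 to 2 after panobinostat. Ifit1 and Ifit3b were called for the difference without the first panobinostat pDC library. A group left with 1 library is assumed to vary like the others.

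Among all genes, panobinostat in pDC gave 13 calls as reported, 2 with RLE, 68 with no filter, 914 with DESeq2, 5 with upper quartile scaling and 0 with voom, with the block and with the 4 libraries. The difference gave 1 call as reported, 5 with no filter, 290 with DESeq2 and 0 with RLE, voom, the block and library size scaling. DESeq2 gave 15 calls in cDC, 2880 in vehicle pDC against cDC (1385 as reported) and 4495 after panobinostat (2557 as reported), and the 4-library fits gave 4491 and 161. With each library left out the counts ranged from 0 to 8227 (pDC), 0 to 0 (cDC), 0 to 6457 (difference), 288 to 349 (vehicle) and 346 to 9796 (panobinostat). Without the first panobinostat pDC library the all-gene median log2 fold change moved to -0.92 in pDC, for the effect and for the difference, and to -1.20 for pDC against cDC. The cause was not tested. With 11 to 35 counts in pDC, Ifit1bl1 is the member that depth limits most.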

Other observations

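Other genes tied to IFIT function or to the locus were not called between panobinostat and vehicle in either cell type by edgeR's quasi-likelihood test. Of 10 genes for cap synthesis, cap methylation and decapping, the log2 fold change was above 0 for 5 in pDC (median -0.11) and 4 in cDC (median -0.02), with 1 and 0 at an unadjusted p under 0.05. Cmtr1, which adds the first ribose methyl group of the cap, had 133 and 122 CPM in panobinostat pDC and 169 and 146 CPM in vehicle pDC. Cmtr2, which methylates the next nucleotide, had 20.8 and 26.1 CPM and 17.7 and 22.9 CPM in these groups. Rngtt, the capping enzyme, had 40.3 and 20.995 CPM in panobinostat pDC and 56.0 and 53.5 CPM in vehicle pDC. Ramac, an activator of the cap guanine methyltransferase, had 153 and 209 CPM in panobinostat pDC and 127 and 172 CPM in vehicle pDC.

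Of 15 translation initiation genes, 11 were above 0 in pDC (median 0.26) and 8 in cDC (median 0.02), with 2 and 0 at an unadjusted p under 0.05. Eif2s1, the alpha subunit of eIF2, had 236 and 378 CPM in panobinostat pDC and 156 and 174 CPM in vehicle pDC. Eif3c, a subunit of eIF3, the factor that IFIT proteins bind, had 174 and 196 CPM and 161 and 188 CPM in these groups, and Eif3k had 343 and 563 CPM and 217 and 306 CPM.

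Of 9 genes in or around the Ifit locus 8 were tested, with 4 above 0 in pDC (median -0.14) and 2 in cDC (median -0.34), and 2 and 0 at an unadjusted p under 0.05. Ifit1bl2, which shares its upstream stretch with Ifit1, had 36 and 116 counts in panobinostat pDC and 11 and 15 in vehicle pDC. Its log2 fold change was 3.18 ± 1.01 (adjusted p = 0.249 by edgeR's quasi-likelihood test). This was 1.33 without the second panobinostat library and 3.96 without the first. DESeq2 called the gene (adjusted p = 0.0220). In cDC it had 92 and 125 counts with panobinostat and 96 and 87 with vehicle, which overlap. Stambpl1, a deubiquitinase gene, had 179 and 180 CPM in panobinostat pDC and 164 and 174 CPM in vehicle pDC, against 13.2 and 11.6 CPM in panobinostat cDC and 10.2 and 9.70 CPM in vehicle cDC. Fas, a death receptor gene, had 23.7 and 26.5 CPM in panobinostat cDC and 42.0 and 51.6 CPM in vehicle cDC. Acta2, the gene for smooth muscle actin, had under 2 CPM in every library.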
